A study of Mus musculus with 96 samples.

Results

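Transcripts of 10 small neuropeptide precursors were examined in patch-clamped neurons of the lateral superior olive (LSO), a nucleus of the auditory brainstem. The genes were Npy, Penk, Pdyn, Nts, Sst, Tac1, Cartpt, Cck, Gal and Adcyap1, chosen by symbol, and all 10 were found among the 38887 genes of the table. Each library held the cytoplasm that was aspirated from 1 recorded neuron in an acute slice of C57BL/6J mice of both sexes at postnatal day 11 ± 1, close to hearing onset, with no transgene or treatment in any group. The groups were principal neurons with an Onset firing pattern (41 Onset pLSOs), principal neurons with a Sustained pattern (11 Sustained pLSOs, together 52 pLSOs), lateral olivocochlear neurons with delayed firing (28 LOCs) and negative controls (8 libraries), for which a pipette only touched the slice. A further 6 neurons and 2 controls were left out because the label and the transcriptomic cluster did not match or another set of values exists under the same name, so the neurons were not chosen by firing alone. The labels tie no neuron to an animal, and a group was therefore taken as 1 sample, with no test between groups. Confidence intervals (exact Clopper-Pearson, 95%) and, for a count of 0, the share that 3 neurons or libraries of the group would make cover counting error only.

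Neuropeptides are cut from longer precursors, packed into dense-core vesicles and released along with a fast transmitter, and they act slowly through G protein-coupled receptors. Opioid peptides come from Penk (enkephalins) and Pdyn (dynorphins), and neuropeptide Y from Npy; all of them usually dampen excitability or release. LOCs send axons to the cochlea, where they end near the dendrites of auditory nerve fibers, and are known as peptide-rich cholinergic neurons, whereas pLSOs compute sound location from excitation of one ear and inhibition of the other and project to the midbrain.

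The stretches of the mouse transcripts that encode the mature peptides of 4 precursors on which the results turn are shown first, since these messages are what was counted. Capitals mark the codons of the peptide, and lower-case letters mark up to 9 flanking bases on each side, most of them codons of the sites at which the precursor is cut or amidated. All letters are from the Gencode vM21 transcripts on GRCm38.
Cck: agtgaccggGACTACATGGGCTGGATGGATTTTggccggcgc
Npy: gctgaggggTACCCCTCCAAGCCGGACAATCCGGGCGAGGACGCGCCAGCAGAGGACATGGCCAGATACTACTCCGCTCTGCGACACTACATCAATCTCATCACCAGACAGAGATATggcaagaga
Sst: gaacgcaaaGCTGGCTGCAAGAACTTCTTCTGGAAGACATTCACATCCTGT
Gal: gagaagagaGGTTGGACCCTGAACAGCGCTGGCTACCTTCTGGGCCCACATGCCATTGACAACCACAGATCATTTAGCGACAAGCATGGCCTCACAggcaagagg

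The 8 codons of the cholecystokinin octapeptide lie in exon 3 of Cck at chr9:121490107-121490130 on the minus strand. The 14 codons of somatostatin lie in exon 2 of Sst at chr16:23889732-23889773 on the minus strand and close the reading frame. The 36 codons of neuropeptide Y run over exons 2 and 3 of Npy on the plus strand of chromosome 6, from 49823682 to 49823785 and from 49827489 to 49827492. The 29 codons of galanin run over exons 3 and 4 of Gal on the minus strand of chromosome 19, from 3413334 to 3413295 and from 3411647 to 3411601.

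Cck, the precursor of cholecystokinin, was the only one of the 10 that was found in a large share of a group. It was present at 1 TPM or more in 28 of 52 pLSOs (53.8%, interval 39.5 to 67.8%), in 0 of 28 LOCs, which by the limit of 3 counts allows a share of up to 10.7%, and in 0 of 8 negative controls, which by the same limit allows up to 37.5%. Npy and Pdyn, in contrast, were each present in 4 of 28 LOCs (14.29%, interval 4.03 to 32.7%), against 1 of 52 pLSOs for Npy and 0 of 52 for Pdyn. Sst and Gal were found in a minority of both classes, and the remaining 5 were found in 1 to 3 neurons each. At least 1 precursor was present in 30 of 52 pLSOs and in 14 of 28 LOCs, and without Cck in 15 of 52 pLSOs.

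**Figure D1:**
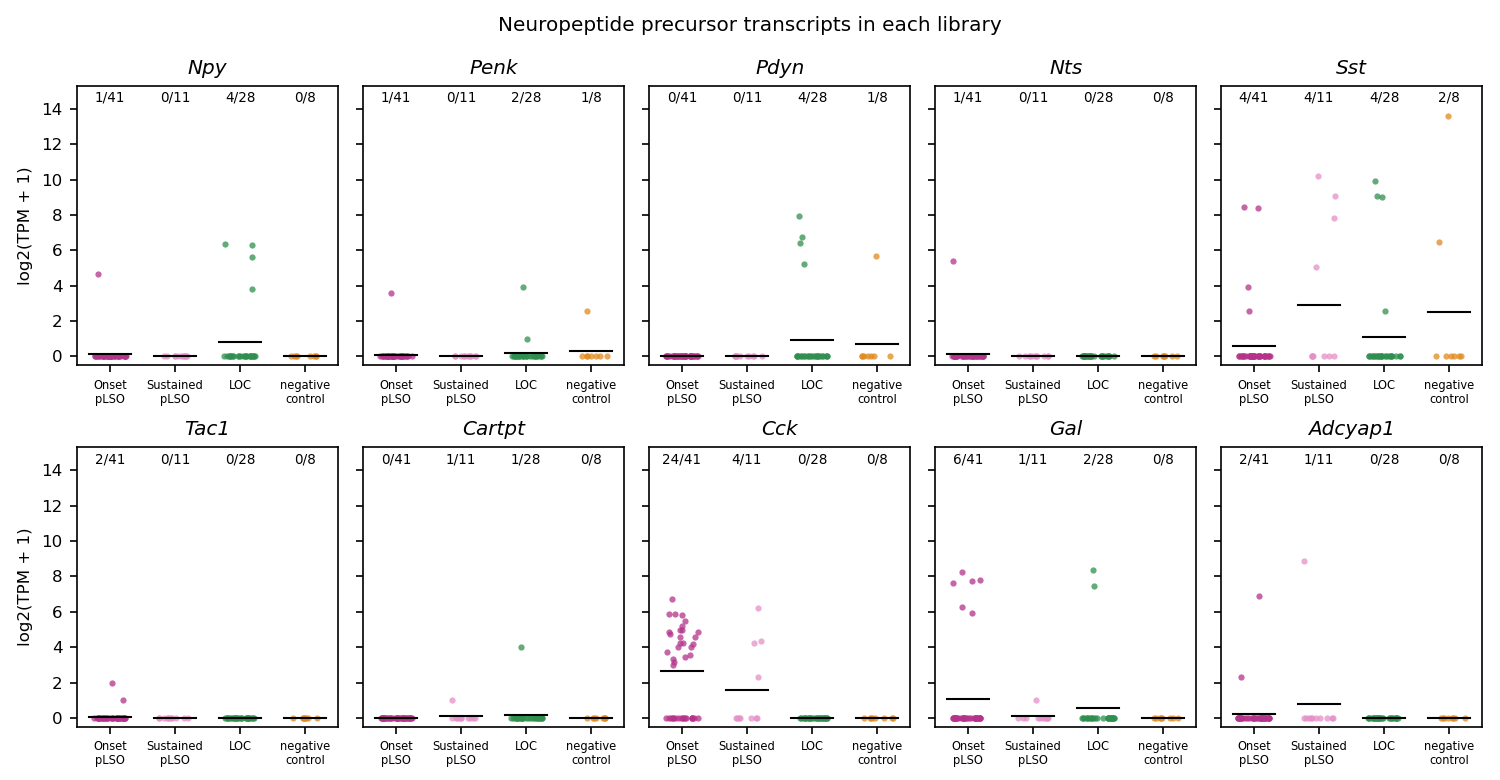
Each point is 1 library, the y axis gives log2(TPM + 1) of the precursor named above the panel, the black line is the group mean, and the counts give libraries at 1 TPM or more over all libraries of the group. Cck fills the Onset group (24/41) and is at 0 in all 28 LOCs, whereas Npy and Pdyn stand out in 4 LOCs each.

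Depth must be known before such values can be read. By the estimate below, pLSO libraries held 159956 to 2829922 reads in genes (median 742847), LOC libraries 260259 to 1545648 (median 574091) and negative controls 2555 to 122744 (median 28956). Detected genes numbered 1333 to 6276 in pLSOs, 1175 to 4408 in LOCs and 285 to 1271 in negative controls. Spp1 (osteopontin) was present in 50 of 52 pLSOs and 1 of 28 LOCs. Calca (CGRP precursor) was present in 26 of 28 LOCs at a median of 926 TPM and in 15 of 52 pLSOs at up to 58 TPM. Ucn (urocortin) was present in 23 of 28 LOCs and 0 of 52 pLSOs. Negative controls carried these markers as well, Calca in 5 of 8 libraries, Spp1 in 4 and Ucn in 2. Of the other pLSO markers listed, Kcnh7, Rorb, Maf and Slc17a6 were present in 3.57%, 0%, 28.6% and 25% of LOCs. Of the other LOC markers, Isl1, Gata3 and Chat were present in 0%, 13.5% and 0% of pLSOs. Neurons whose label and cluster did not match had been left out, so that markers follow the labels in part by that choice. Chat was at 1 TPM or more in 5 LOCs. Glial RNA was carried along in neurons of both classes, since the summed TPM of 5 oligodendrocyte markers had a median of 107.5 in pLSOs, 231.5 in LOCs and 3642 in negative controls, and that of 5 astrocyte markers a median of 35.5, 42 and 97; the part of such RNA in the results was not tested.

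The deposited TPM values could not be compared directly between genes. At the top of the table, nearly all low values of a library were whole multiples of a fixed step within rounding (a median over the 80 neurons of 100% of such values and a lowest share of 91.5%), and this step shrank down the table in the order of the rows, as if lengths sorted by size had been divided into the counts irrespective of the gene. From these steps the reads behind each value were estimated. In the neuron with the median step, 1 read of Sst (row 705) was listed as 13 TPM, 1 read of Gal (row 4762) as 1.01 TPM, 1 read of Pdyn (row 6108) as 0.346 TPM, 1 read of Npy (row 7549) as 0.203 TPM and 1 read of Cck (row 9048) as 0.151 TPM. For Penk and Tac1, 1 read was worth 0.0821 and 0.0584 TPM, so that up to 6.09 and 8.56 reads were rounded to 0 TPM and their counts of neurons are lower bounds. All 15 values of Sst in the table came out within 0.1 of a whole number of reads. Steps and row lengths were fitted to make values whole, the latter in rows that include that of Sst. These shares of whole values therefore follow in part from the fit.

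**Figure D2:**
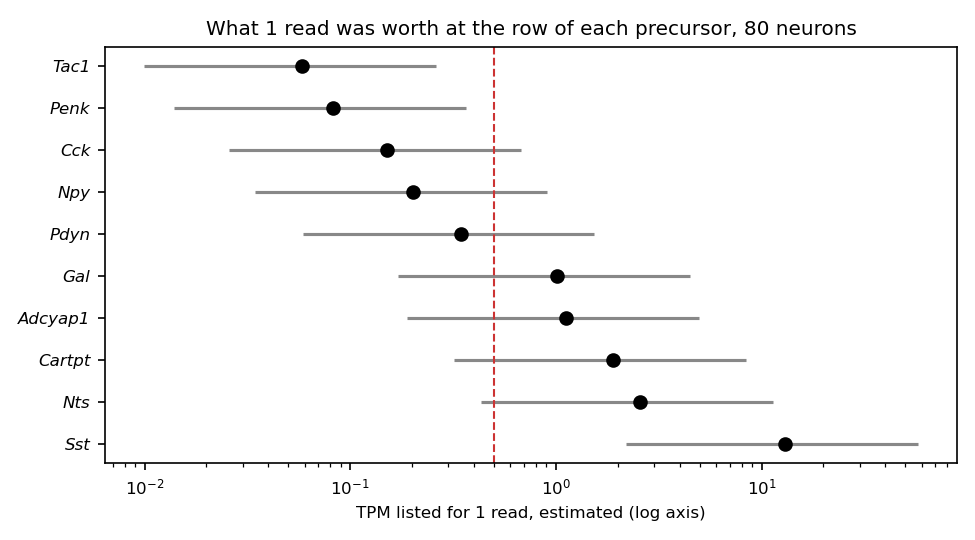
For each precursor, the point gives the TPM that 1 estimated read was listed as in the median neuron and the line the range over the 80 neurons, on a log axis; the dashed line at 0.5 TPM is where values were rounded up to 1. The median lies between 0.0584 TPM for Tac1 and 13 TPM for Sst.

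Cck was carried by many reads where it was present. Among the 24 Onset pLSOs with the transcript, values ran from 7 to 105 TPM with a median of 23 TPM, and among the 4 Sustained pLSOs they were 4, 18, 19 and 74 TPM. These values stood for an estimated 43.9 to 1159 reads per neuron. The 28 LOCs, at 0 TPM throughout, could each have held no more than 1.61 to 10.0 reads of Cck without being listed, or at most 7.20 RPM, that is, estimated reads scaled to a fixed library total in the way of TPM but with no length, whereas the lowest positive pLSO had 52.7 RPM. A LOC library with as high an RPM of Cck as the lowest positive pLSO would therefore have been listed. Loss of transcripts during capture was not tested.

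Over all neurons of a group, the mean of Cck was 16.7 ± 22.1 TPM (SD, n = 41) in Onset pLSOs, 10.5 ± 22.3 TPM (n = 11) in Sustained pLSOs and 0 TPM in LOCs and in negative controls. Without the highest neuron, the mean of the Sustained pLSOs was 4.10 TPM and that of the Onset pLSOs 14.5 TPM. The order was thus Onset, Sustained and LOC, but the spread among neurons within the Onset and the Sustained group exceeded the distance between their means. In RPM, which takes out the row length, the means were 189 ± 243 and 112 ± 225.

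As a difference of mean log2(TPM + 1), Cck was 2.43 higher in pLSOs (2.43 ± 2.40) than in LOCs (0). Of 10319 genes that were detected in at least 5% of neurons, 6.99% were higher in pLSOs and 4.68% higher in LOCs by 1 or more. Of the 10 precursors, 5 were among the genes so filtered, and Cck alone passed this difference, in size above 98.5% of all genes. The differences of the other 4 were -0.94 for Pdyn, -0.70 for Npy, 0.29 for Gal and -0.03 for Sst, each smaller than the SD among LOCs (2.37, 2.01, 2.08 and 2.96). Cck and Pdyn passed the 5% filter through 1 class alone, so that their differences and the rank of Cck follow in part from it. On the log2(RPM + 1) scale, the differences of Npy and Pdyn were -1.04 and -1.25, and that of Cck was 4.29. Only 3 of the 10319 genes (0.0291%) were present in at least 50% of pLSOs and in no LOC, namely Cck, the transcription factor Bhlhe40 and the nuclear receptor Rorb, a marker listed for pLSOs. These limits were set with the values of Cck known, so that its place among the 3 was fixed in advance. How few genes met them follows in part from that choice.

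Within pLSOs, Cck was present in 24 of 41 Onset neurons (58.5%, interval 42.1 to 73.7%) and in 4 of 11 Sustained neurons (36.4%, interval 10.9 to 69.2%), and these intervals overlap widely. The difference of mean log2(TPM + 1), Onset minus Sustained, was 1.11 for Cck, a size that 4.92% of 10012 genes reached in this direction and 10.7% in the other. Of the 4 Sustained neurons with Cck, cell_45 and cell_46 had the most detected genes of the 80 neurons, and without this pair 2 of 9 Sustained neurons had Cck. Cck did not follow library depth: its Spearman rho with the number of detected genes was -0.01 over 52 pLSOs and -0.05 over 41 Onset pLSOs.

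The recordings allowed Cck to be set beside the physiology of the same neurons, in 16 features. Among Onset pLSOs, Cck was lower the larger the amplitude of spontaneous inhibitory postsynaptic currents (sIPSCs), with a rho of -0.60 over 40 neurons, whose amplitudes ran from 13.1 to 49.9 pA (median 28.5 pA). Of 4958 genes detected in at least 8 Onset pLSOs, Cck itself was the only 1 with a rho of this size in either direction (0.0202%). This feature was the one of the 16 with the largest rho for Cck, and the other genes were ranked on it alone, so that the rank follows in part from that choice. Cck was also higher in Onset neurons with a wider action potential (rho 0.46 with half-width, 11 of 4958 genes as far from 0), a longer membrane time constant (0.42) and a higher input resistance (0.41). Without the 2 neurons farthest from the median of the feature, these values were -0.61, 0.39, 0.45 and 0.44.

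These features were not independent of each other. In the same Onset neurons, sIPSC amplitude had a rho of -0.57 with half-width, -0.50 with the time constant and -0.48 with input resistance. The remaining features of the Onset neurons gave Cck a rho between -0.22 and 0.37. With the Sustained neurons included, the rho of Cck was -0.47 with sIPSC amplitude (n = 51), 0.35 with half-width (n = 52) and 0.17 with input resistance. Neither Cck nor sIPSC amplitude moved with the number of detected genes (rho -0.05 and 0.07 among Onset neurons). These are descriptions over neurons that share slices and animals in a way the labels do not give.

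**Figure D3:**
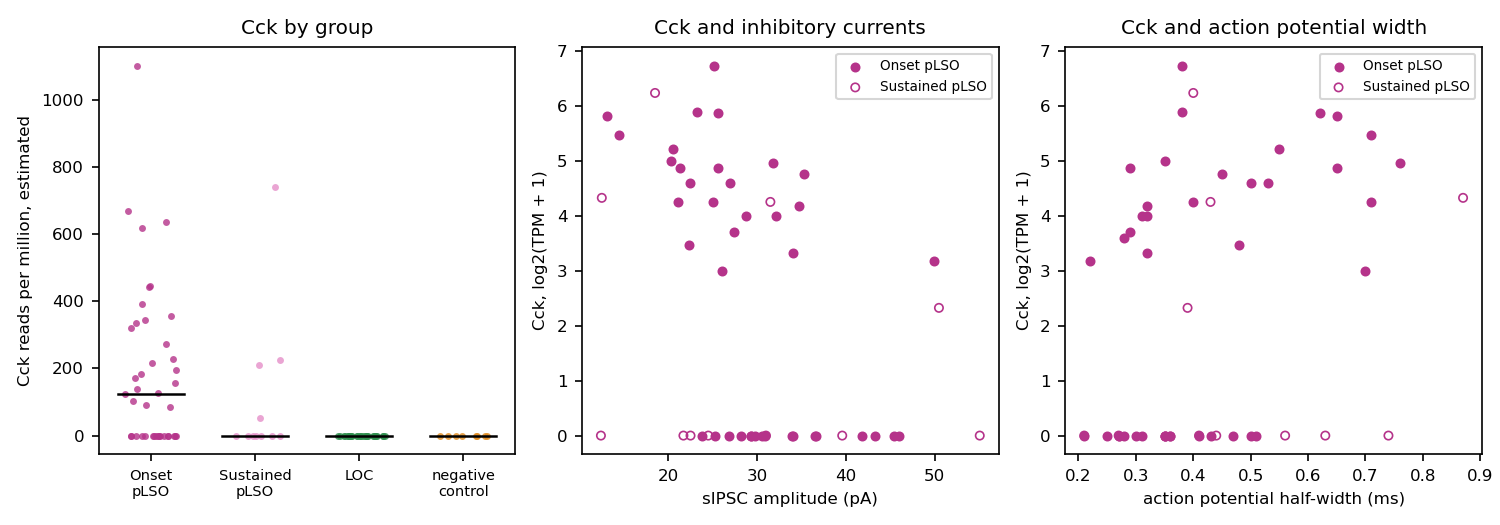
The left panel gives estimated RPM of Cck by group (1 point per library, line at the median), and the other panels log2(TPM + 1) of Cck against sIPSC amplitude in pA and action potential half-width in ms for Onset (filled) and Sustained (open) pLSOs. Among Onset neurons, Cck is higher at small sIPSC amplitudes (rho -0.60) and at wide action potentials (rho 0.46).

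The genes whose pattern was most like that of Cck over the 80 neurons, of 7768 genes detected in at least 8 of them, were Kcnh7 (an ERG potassium channel, Pearson r of log2(TPM + 1) 0.56), Adm (adrenomedullin, 0.55) and Lpgat1 (a lipid acyltransferase, 0.51). Within the 52 pLSOs the same values were 0.34, 0.45 and 0.25. Adm was present in 18 of 41 Onset pLSOs at 5 to 148 TPM, in 0 of 11 Sustained pLSOs and in 0 of 28 LOCs, and 1 of 8 negative controls held 2 TPM, or 1 read. In 16 of these 18 Onset neurons, Cck was present as well, beside 24 of all 41 Onset neurons. Adm was ranked by its likeness to Cck in the same neurons, so that this count in part restates the ranking. For Sst, the most similar genes were Samd8, Taf3 and Aaas (0.57, 0.56 and 0.53), and for Gal 4931428F04Rik, Slc3a1 and N4bp2 (0.49, 0.45 and 0.45); with 12 and 9 positive neurons, these values rest on few points.

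The start of Cck transcription was looked at for sequence, because it was the member found in the most neurons, and that of Sst because it was found in both classes. In the 120 bases before the start site, capitals mark an E-box (CACGTG) and a site related to the cAMP response element (TGCGTCA) in Cck, and the full cAMP response element (TGACGTCA) in Sst. The windows are from RefSeq on GRCm38.p6, both on the minus strand, at chr9:121495695-121495814 and chr16:23890845-23890964. The start sites are those of RefSeq. In Gencode vM21 the Sst gene reaches to 23890958 and so covers most of its window.
Cck: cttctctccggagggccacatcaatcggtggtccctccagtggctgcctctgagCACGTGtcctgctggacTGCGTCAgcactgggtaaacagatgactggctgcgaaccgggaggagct
Sst: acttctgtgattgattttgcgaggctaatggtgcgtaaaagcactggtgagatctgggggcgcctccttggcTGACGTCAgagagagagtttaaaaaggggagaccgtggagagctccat

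Each was searched on both strands in windows of 300 bases around the starts of all genes, and 9 of the 10 precursors had a window. The E-box occurred in 7.15% of 32851 windows and the related site in 2.12%, and of the precursors Cck and Tac1 held each of them. The full element occurred in 1.79% of windows, among them those of Sst and Cartpt. A match is a description of letters and not of a bound site.

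Npy was found in 4 of 28 LOCs, at 13, 49, 79 and 81 TPM, which stood for an estimated 126, 424, 620 and 228.4 reads. The other 24 LOCs were at 0 TPM, where at most 1.19 to 7.44 reads could have been hidden. One Onset pLSO held 24 TPM of Npy, estimated at 59 reads. All 11 Sustained pLSOs and all 8 negative controls were at 0. The transcript was thus carried by many reads in 4 LOCs and listed at 0 in the other 24. The authors state that only part of the mRNA is captured, which gives false zeros. The share of such zeros was not tested, so that a graded level across the class cannot be told apart.

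Pdyn showed the same kind of distribution in other LOCs. It was at 36, 85, 109 and 241 TPM in 4 LOCs, an estimated 131, 158, 169 and 523 reads, and at 0 in the other 24 LOCs and in all 52 pLSOs, which by the limit of 3 counts allows a share of up to 5.77% of pLSOs. One negative control was listed at 51 TPM of Pdyn, a value that rested on 1 estimated read in a very shallow library. No LOC held both Npy and Pdyn, from which nothing can be read with 4 neurons each of 28. Each of the 8 LOCs with either held Calca (349 to 2766 TPM) and Ucn (14 to 59 TPM), which were present in 26 and 23 of all 28 LOCs.

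Penk, the enkephalin precursor, was seen in 2 LOCs at 1 and 14 TPM (an estimated 30 and 85 reads) and in 1 Onset pLSO at 11 TPM (239 reads). In 1 negative control it was at 5 TPM, or 1 read. Its gene overlaps an exon of A830012C17Rik on the other strand, and reads of the pair may not be told apart. Both LOCs with Penk also held Sst, in cell_82 at 1 read. They were the LOCs with the most detected genes, and nothing can be read from this overlap.

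**Figure D4:**
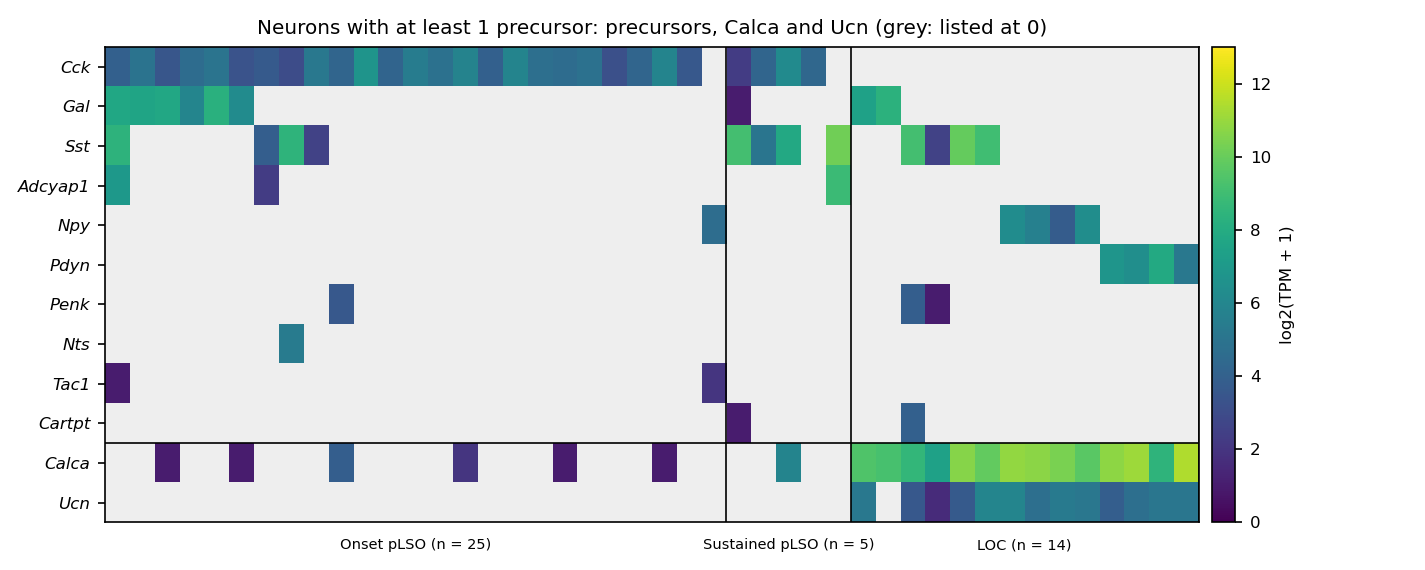
Columns are the 44 neurons with at least 1 precursor and rows the 10 precursors with Calca and Ucn below the line; color gives log2(TPM + 1) and grey a value of 0. Among the 14 LOCs, Gal (2), Sst (4), Npy (4) and Pdyn (4) fall in different neurons, Penk (2) and Cartpt (1) fall in neurons with Sst, and Cck runs through 28 of the 30 pLSOs shown. With so few neurons each, nothing can be read from the overlap or the lack of it in LOCs.

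Sst, the somatostatin precursor, was found in 4 of 41 Onset pLSOs, 4 of 11 Sustained pLSOs and 4 of 28 LOCs. The values were 5, 14, 332 and 349 TPM in the Onset group, 32, 229, 548 and 1162 TPM in the Sustained group and 5, 522, 545 and 968 TPM in LOCs. Since 1 read of Sst was listed as 2.20 to 57.8 TPM, these high values stood for few reads, namely 1, 1, 19 and 71 in Onset pLSOs, 2, 17, 86 and 97 in Sustained pLSOs, and 1, 39, 21 and 40 in LOCs. Negative controls were not free of Sst: 1 of 8 held 12587 TPM, or 37 reads, and another 87 TPM, or 1 read. In RPM, the highest neuron had 145 and the highest control 1542.5, so that the level of Sst in neurons did not exceed that of the highest control. The part of material from outside the neuron was not tested.

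The difference of mean log2(TPM + 1) of Sst, Onset minus Sustained, was -2.36 and passed 1, with SDs of 1.94 and 4.24 and overlapping groups. Without cell_45 and cell_46, 2 of 9 Sustained neurons had Sst and the difference was -1.43. On the log2(RPM + 1) scale the difference was -1.57. Sst gave no rho beyond 0.27 with any of the 16 features, over 49 to 52 pLSOs of which 7 or 8 held it.

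Gal, the precursor of galanin, was at 60, 75, 195, 210, 223 and 309 TPM in 6 of 41 Onset pLSOs, an estimated 58 to 652 reads. It was at 1 TPM, or 2 reads, in 1 of 11 Sustained pLSOs, at 175 and 330 TPM (149 and 455 reads) in 2 of 28 LOCs, and at 0 in all 8 negative controls. In each of the 7 pLSOs with Gal, Cck was present too, as it was in 28 of 52 pLSOs in all. Sst was found with Cck in 7 of 8 pLSOs, but cell_2, cell_22 and cell_46 held only 1 or 2 reads of Sst. The 7 also include cell_45 and cell_46, the neurons with the most detected genes. In LOCs, no neuron with Gal held Npy, Pdyn or Sst, from which nothing can be read with 2 neurons with Gal.

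Adcyap1, the precursor of PACAP, was at 4 and 119 TPM in 2 Onset pLSOs (3 and 79 reads), at 472 TPM (458 reads) in 1 Sustained pLSO and at 0 in all LOCs and controls. All 3 neurons also held Sst, which in cell_2 rested on 1 read. Nts (neurotensin) was at 41 TPM, or 42 reads, in 1 Onset pLSO and at 0 in every other library. Tac1, which encodes substance P, was at 1 and 3 TPM in 2 Onset pLSOs, an estimated 13 and 25 reads. Cartpt (CART peptide) was at 1 TPM in 1 Sustained pLSO and 15 TPM in 1 LOC, which stood for 1 and 4 reads.

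Precursors were unevenly spread over neurons. Of the 52 pLSOs, 22 held none, 15 held 1, 11 held 2, and 4 held 3 or more, with 5 precursors in 1 Onset neuron (Sst, Tac1, Cck, Gal and Adcyap1). Of the 28 LOCs, 14 held none, 12 held 1, 1 held 2 and 1 held 3. The neuron with 4 precursors, cell_45, had 6276 detected genes, the most of all libraries, and held 2 of them at 1 or 2 reads. The LOCs with 2 and 3 precursors were those with the most and the second most detected genes in their class (4408 and 3737).

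Levels of different precursors were compared after rescaling to the exon length of each gene. On this scale of own-length TPM, the mean over 28 LOCs was 296 for Npy, 123 for Gal, 85.2 for Pdyn and 34.8 for Sst, with SDs of 840, 497, 260 and 104, so that neighbours in this order did not differ beyond their spread. In the strongest LOC for each, Npy reached 3032, Gal 2479 and Pdyn 1249. Over 52 pLSOs, the mean was 414 ± 600 for Cck, 141 ± 440 for Gal and 29.1 ± 111 for Sst. Without its highest neuron, the mean of Npy in LOCs was 195 and that of Gal 35.9, and those of Pdyn and Sst were 42.1 and 21.4.

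The receptors through which these peptides act were taken from a list. Of 28 receptor genes listed, 27 were found in the table, 16 in at least 1 neuron and 7 in at least 5% of neurons. The median difference of these 7, pLSO minus LOC, was -0.11, beside a median of 0.07 over all 10319 genes. None of the 7 was higher in pLSOs by 1 or more and 2 were higher in LOCs, beside 6.99% and 4.68% of all genes. The first was Oprk1, the kappa opioid receptor on which dynorphins act (-1.20). It was at 223, 386, 418 and 739 TPM in 4 of 28 LOCs, an estimated 326 to 650 reads, and at 1 TPM, or 1 read, in 2 of 52 pLSOs. Of the 4 LOCs with Oprk1, 2 also held Pdyn, beside 4 of all 28 LOCs, and nothing can be read from so few neurons.

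The second was Adcyap1r1, the PACAP receptor (-1.01). It was present in 9 of 28 LOCs at 1 to 171 TPM and in 5 of 52 pLSOs at 1 to 109 TPM, and none of the 3 neurons with Adcyap1 held it. Oprl1, the nociceptin receptor, was present in 13 of 41 Onset pLSOs, 5 of 11 Sustained pLSOs and 10 of 28 LOCs. Ntsr2, a neurotensin receptor known from astrocytes, was present in 8, 4 and 4 neurons of these groups. Oprm1 (mu opioid receptor) was present in 2 LOCs, at 220 and 1246 TPM, an estimated 7 and 31 reads. The cholecystokinin receptors Cckar and Cckbr were at 0 in all pLSOs, and Cckbr at 1 TPM in 1 LOC. Of the NPY receptors Npy1r, Npy2r and Npy5r, Npy2r was listed once, at 2 TPM in a pLSO. Up to 2.25 to 7.24 reads of these 3 could have been hidden in the median pLSO.

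Of 46 other peptide precursors listed, 45 were in the table, 26 were present in at least 1 neuron and 7 in at least 5%. One of the 7 was higher in pLSOs by 1 or more, namely Adm (1.77), and 4 were higher in LOCs, with a median difference of -2.38 over the 7. The 4 were Calca (-8.63), Ucn (-3.92), Calcb (-3.45) and Uts2b (-2.38), which encode CGRP peptides, urocortin and urotensin 2B. Calca and Calcb are close paralogs whose reads may be shared. Of all 10319 genes, 6.99% were higher in pLSOs and 4.68% in LOCs by 1 or more, with a median of 0.07. The counts and median of the 7 follow in part from the choice of genes, since the list held peptides that mark LOCs. Adm, Ucn and Uts2b also passed the 5% filter through 1 class alone. Uts2b was present in 16 of 28 LOCs and Calcb in 15. Edn1 (endothelin) was present in 8 Onset pLSOs, 5 Sustained pLSOs and 2 LOCs. Its values were 1 to 538 TPM in Onset pLSOs (an estimated 1 to 793 reads) and 97 and 609 TPM in LOCs (26 and 156 reads). In Sustained pLSOs they were only 1 to 14 TPM, or 1 to 9 reads. Nmb (neuromedin B) was seen in 3 of 11 Sustained pLSOs, at 1, 91 and 101 TPM, and in no other neuron, while 1 negative control held 1 read. Calca and Ucn were in 26 and 23 of 28 LOCs, whereas each of the 10 precursors described here was found in 0 to 4 LOCs.

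**Figure D5:**
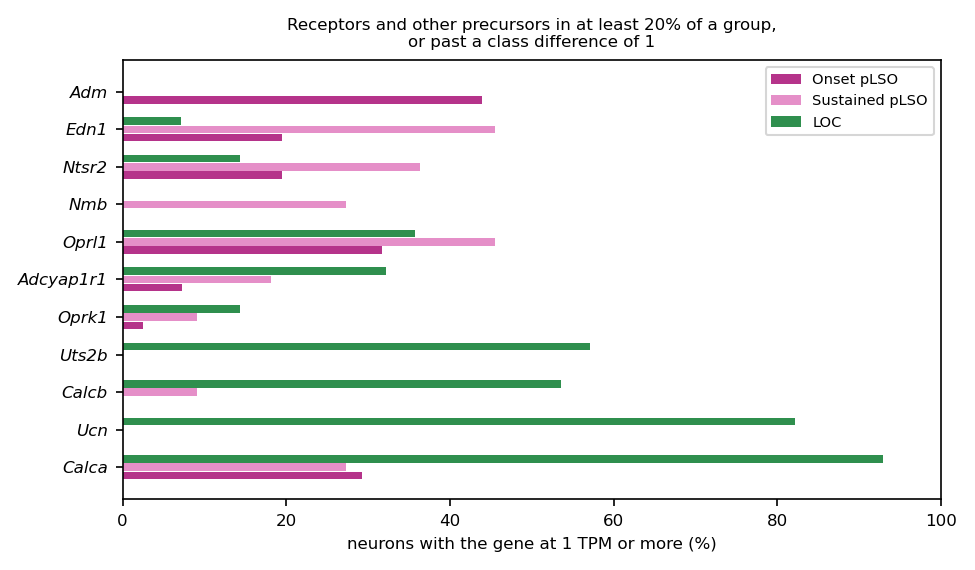
Bars give the percentage of Onset pLSOs (n = 41), Sustained pLSOs (n = 11) and LOCs (n = 28) with at least 1 TPM of each receptor or other precursor that was present in at least 20% of a group or differed by 1 or more between the classes, in order of the difference, pLSO minus LOC. Calca, Ucn, Calcb and Uts2b fill the LOC side, and Adm appears, of the neurons, in Onset pLSOs only (18 of 41).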

How the data were processed

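Single-neuron libraries were made by the authors by oligo-dT priming with template switching and Nextera XT and mapped with STAR to mm10 after trimming with Trim Galore 0.4.2; genes were counted with featureCounts. The deposited values, treated as a score, are TPM that the authors computed from gene length and depth and rounded to whole numbers (sums of 999773 to 1000026 per library). Symbols, positions and exon lengths were taken from Gencode vM21, in which 37570 of 38887 genes have a length. Detection meant 1 TPM or more. Group differences are means of log2(TPM + 1), with a pseudocount of 1, over genes that reached this level in 5% of neurons or more. Reads were estimated as TPM times the effective length of the row over the value of 1 read in the library, both fitted to the whole-number steps of the table (starting from exon lengths in ascending order less 80 bases, with row blocks read off the values), and tested on simulated data; they are estimates and no count table was used here. RPM and own-length TPM were derived from them. Spearman and Pearson coefficients were computed with scipy 1.17.1 and numpy 2.4.6 and describe neurons, without p. Named receptors and precursors were those present in at least 20% of a group or past a difference of 1; Oprm1 and the Cck and Npy receptors were added after their values were seen. Members and lists were chosen with earlier results of these data known. Strand was not given in the sources used here. The coding stretch of 1 further precursor is not reported here.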

Additional observations from a re-analysis of the deposited data

Results flagged for a closer look

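In the 8 negative controls, 1 library stood far from the others for Sst, at 12587 TPM or an estimated 37 reads, by Dixon's criterion, which chance passes in about 1 of 20 groups of continuous values. Sst was at 0 in 6 of the 8 controls, so that this rate does not hold for it. Pdyn at 51 TPM and Penk at 5 TPM also met the criterion, each in 1 control and with 1 estimated read. The other 7 controls were at 0, where any value above 0 meets the criterion and the rate of 1 in 20 does not hold either. A signal was also present in a control that was left out of the comparisons, which had 3104 detected genes, more than any control used: it held 16 TPM of Cck (an estimated 42.2 reads) and 814 TPM of Sst (25.0 reads), whereas Cck was at 0 in the 8 controls used. The source of these reads was not tested.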

How the results depend on the processing

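Of 212 values recomputed under other settings, 205 moved by less than the spread of neurons or the counting interval, or for counts of genes by less than 1.5 times. Part of this count was fixed in advance. Leaving out the highest neuron (20 values) cannot shift a mean by more than the SD. The 20 shares at 1 estimated read or more and the 20 at 1 unit of own-length TPM came from the same values above 0 and were unchanged. The near-zero difference of Sst, pLSO minus LOC, changed sign, from -0.03 to 0.01 with a pseudocount of 0.1; those of Npy and Pdyn passed 1 in size with this pseudocount (-1.11 and -1.41), after rescaling to own length (-1.34 and -1.28) and on RPM (-1.04 and -1.25). At a detection level of 10 TPM, Tac1 and Cartpt were left with 0% of pLSOs. The difference of Cck, pLSO minus LOC, was 4.18 with a pseudocount of 0.1, 4.95 after rescaling to own length and 4.29 on RPM, the last chosen after seeing the data. At a difference of 2, 146 genes were higher in pLSOs and 110 in LOCs, fewer because the limit is higher, against 721 and 483 at 1. No paired analysis was possible because no result comes from a test and no label ties neurons to an animal. Depth limits most what can be said of Penk and Tac1, of which several reads could be rounded to 0, and of Sst and Cartpt, for which values of 1 to 4 reads were listed as 1 TPM or more.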
